A study of Mus musculus with 2 samples.

Results

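The proximal microRNA genes of the imprinted Dlk1-Dio3 domain were examined in the intestine of mouse embryos. They are 10 plus-strand genes between 109.56 and 109.60 Mb of chromosome 12: Mir770, Mir673, Mir493, Mir337, Mir540, Mir665, Mir431, Mir433, Mir127 and Mir434. They were chosen by position and name, and they make up 10 of the 1973 gene rows measured. Mir3070a, Mir3070b and Mir432 are further plus-strand rows of this interval that are not in the group. Small RNA with a size limit below 30 bases was sequenced from intestine of the B6NCrl strain at 14.5 days of embryonic development. There was 1 group of 2 biological replicates, with no treatment and no allele named in the labels. Per the labels each sample is 1 intestine of 1 pup, yet its sex is entered as a male and female pool. Replicate 1 was collected on day 17 and replicate 2 on day 15 of one month, so replicate and collection day cannot be told apart.

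The Dlk1-Dio3 domain is controlled by parental imprinting. Its protein-coding genes Dlk1, Rtl1 and Dio3 are expressed from the paternal chromosome, while the noncoding RNAs Meg3, anti-Rtl1, Rian and Mirg, and the microRNAs embedded in them, come from the maternal one. Rtl1 is a gene derived from a retrotransposon, known for its role in the placenta and in fetal muscle. The anti-Rtl1 transcript runs across Rtl1 on the opposite strand, so the microRNAs cut from it are fully complementary to Rtl1 messenger RNA and are known to direct its cleavage.

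The 10 genes fall into 2 sets by annotation (GENCODE M21, GRCm38, the assembly also called mm10). Mir431, Mir433, Mir127 and Mir434 lie opposite the coding sequence of Rtl1 (chr12:109589193-109600330, minus strand), and so are called the Rtl1-antisense genes here. The other 6 lie at lower coordinates, on the Meg3 side of Rtl1 and past its 3′ end, and are called the Meg3-side genes here. Mir770 (chr12:109563692-109563785) lies inside Meg3 and within an exon of 1 of the 11 annotated Meg3 transcripts. Mir673 (chr12:109571990-109572080), Mir493 (chr12:109580233-109580315), Mir540 (chr12:109586080-109586146) and Mir665 (chr12:109586314-109586407) overlap no other annotated gene. Mir337 (chr12:109585789-109585885) is overlapped on the minus strand by Mir3544. Mir337, Mir540 and Mir665 stand close together, separated by 194 and 167 bases, whereas 8204 bases separate Mir770 from Mir673.

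The mature sequences of the Rtl1-antisense genes are shown because they carry most of the counts and because each is a mirror of an Rtl1 stretch. They are RefSeq sequences (GRCm38.p6), 5′ to 3′, with the seed (bases 2 to 8, which pair first with a target) in capitals. The deposited counts are per gene and do not separate the 5p and 3p arms.
miR-431-5p: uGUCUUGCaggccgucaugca
miR-431-3p: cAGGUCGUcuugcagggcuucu
miR-433-5p: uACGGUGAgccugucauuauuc
miR-433-3p: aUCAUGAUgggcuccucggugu
miR-127-5p: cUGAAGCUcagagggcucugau
miR-127-3p: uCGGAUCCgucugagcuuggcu
miR-434-5p: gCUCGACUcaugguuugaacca
miR-434-3p: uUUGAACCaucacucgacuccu

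All 8 of these arms had an exact reverse complement in the Rtl1 transcript of 6358 bases, 1 place each, and all 8 places lay in the coding sequence. Such a match follows from the place of the genes, by which the set was defined. None of the 12 arms of the other 6 genes had such a match. The Rtl1 sites of the leading genes are shown as DNA letters of the transcript, with the bases opposite the seed in capitals.
Rtl1 site of miR-127-3p: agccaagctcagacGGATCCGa
Rtl1 site of miR-127-5p: atcagagccctctgAGCTTCAg
Rtl1 site of miR-431-5p: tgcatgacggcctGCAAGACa
Rtl1 site of miR-434-3p: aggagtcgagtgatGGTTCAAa

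The 10 genes together gave 2.16 ± 0.0190% (SD, n = 2) of all microRNA counts. Values are counts on the gene's own strand, divided by the library total of such counts and scaled to 1000000 (CPM). That total was 15090126 in replicate 1 and 3903472 in replicate 2. The 10 genes held 327913 and 83775 of these counts. Their share was 2.17% in replicate 1 (Wilson 95% interval 2.166 to 2.180%) and 2.15% in replicate 2 (2.132 to 2.161%). Intervals cover counting error only. They take each read as independent, so PCR copies counted as reads would make them too narrow. Ligation and PCR favour some small RNAs over others, so counts of different microRNAs are not numbers of molecules. In whole tissue, fewer cells of a type and less RNA per cell cannot be told apart.

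Mir127 was the most abundant of the 10. This microRNA is known as a regulator of Rtl1 and of the transcription factor Bcl6. Mir127 (ENSMUSG00000070076.1; chr12:109592846-109592915) stood at 9612 CPM in replicate 1 and at 9932 CPM in replicate 2, from 145045 and 38768 counts. It ranked 22nd of all genes by mean level and held 45.3 ± 1.45% of the counts of the 10 genes. Its hairpin of 70 bases is shown with both mature arms in capitals.
Mir127 hairpin: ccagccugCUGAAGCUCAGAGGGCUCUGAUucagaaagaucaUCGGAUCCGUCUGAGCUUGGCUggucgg

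Mir431 followed, a microRNA known from muscle stem cells, where it targets Pax7. Mir431 (ENSMUSG00000070080.1; chr12:109590447-109590537) stood at 5911 CPM in replicate 1 and at 5193 CPM in replicate 2. It held 27.2% of the counts of the 10 genes in replicate 1 and 24.2% in replicate 2. Mir127 exceeded it in both libraries, by log2 ratios of 0.70 and 0.94, a mean level 1.76-fold higher. Together these 2 genes gave 71.0 ± 0.681% of the counts of the group.

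The remaining Rtl1-antisense genes were several-fold lower. Mir434 (ENSMUSG00000070133.1; chr12:109594506-109594599) had 1612 and 1525 CPM in replicates 1 and 2. Mir433 (ENSMUSG00000070072.1; chr12:109591715-109591838) had 1346 and 1344 CPM, the closest agreement in CPM among the Rtl1-antisense genes. Neighbours on one antisense stretch thus ranged from a mean of 1345 to 9772 CPM.

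**Figure D1:**
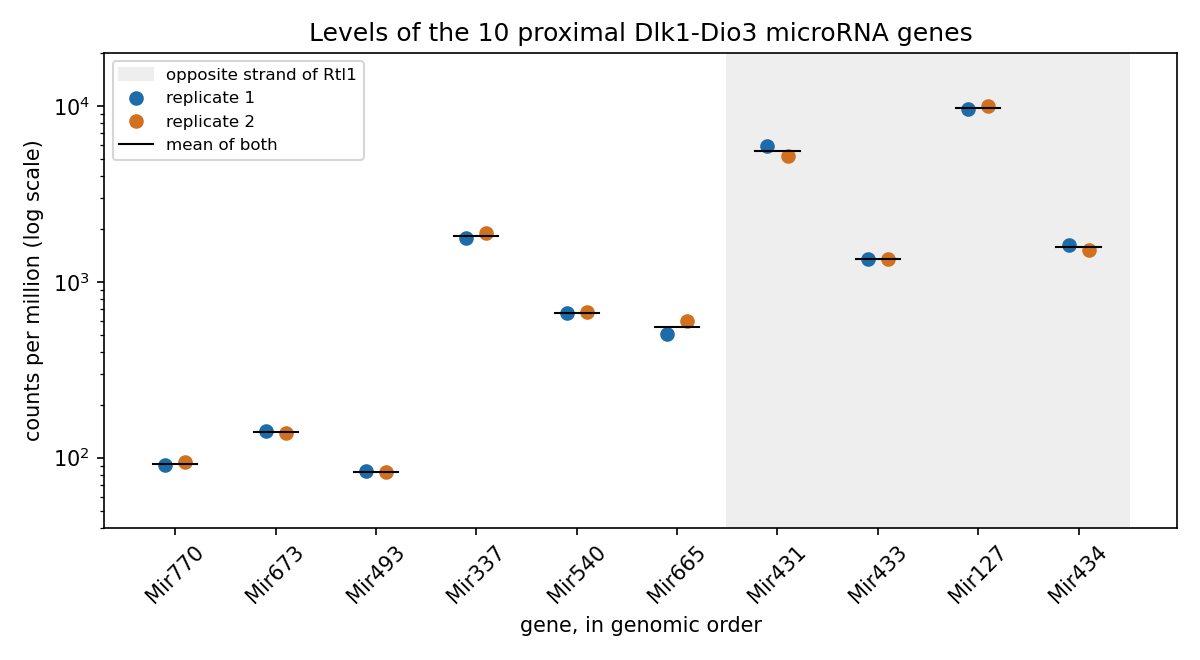
CPM (log scale) of the 10 genes in genomic order, with 1 point per library and a line at the mean of both. Mir127 stands highest at a mean of 9772 CPM and Mir493 lowest at 83.3 CPM; the 4 genes in the grey zone lie opposite Rtl1.

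Among the 6 Meg3-side genes Mir337 (ENSMUSG00000065526.3) was far above the rest. It stood at 1768 CPM in replicate 1 and at 1887 CPM in replicate 2, above Mir434 and Mir433 in both libraries. Mir540 (ENSMUSG00000072900.1) had 662 and 670 CPM, and Mir665 (ENSMUSG00000076313.1) had 504 and 597 CPM. These 3 are the genes that stand close together.

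The 3 genes nearest Meg3 were the lowest of the group. Mir673 (ENSMUSG00000076316.1) stood at 142 CPM in replicate 1 and at 138 CPM in replicate 2. Mir770 (ENSMUSG00000076451.1), the gene inside Meg3, had 90.7 and 94.0 CPM. Mir493 (ENSMUSG00000077025.2) had 83.8 and 82.7 CPM, from 1265 and 323 counts. The highest and the lowest gene of the group differed 117-fold in mean CPM.

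The order of the 10 genes was the same in both libraries. From the highest it ran Mir127, Mir431, Mir337, Mir434, Mir433, Mir540, Mir665, Mir673, Mir770 and Mir493. For each of the 9 neighbouring pairs in this order, the 2 libraries of the upper gene lay above both libraries of the lower gene. The margins were narrow for 4 pairs, between 1.11-fold (Mir770 over Mir493) and 1.21-fold (Mir540 over Mir665). For Mir770 over Mir493 the counting intervals overlapped in both libraries: 86.0 to 95.6 against 79.3 to 88.6 CPM in replicate 1, and 84.9 to 104 against 74.2 to 92.3 CPM in replicate 2. Per 100 annotated bases this pair changed places (98.2 for Mir770 and 100.3 for Mir493), while the other places stayed. No test of the order was made.

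The 4 Rtl1-antisense genes outweighed the 6 Meg3-side genes 5.43-fold. They gave 1.82 ± 0.0345% of all counts and the Meg3-side genes 0.336 ± 0.0155%. On the log2 scale this ratio stood at 2.51 for replicate 1 and 2.37 for replicate 2, which lie 0.13 apart. The Rtl1-antisense genes thus held 84.4 ± 0.854% of the counts of the group, and their median level was 3560 CPM against 345 CPM for the Meg3-side genes. Most of this came from Mir127 and Mir431, with 71.0% of the counts of the group. Mir434 and Mir433 held 7.26% and 6.23% (means of both libraries), each below the 8.46% of the Meg3-side gene Mir337.

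All 10 genes reached the minimum of 10 counts per library, as did 363 of all 1973 genes, which are called detected. The median level of the 10 was 1005 CPM, against 129 CPM over the 363 detected genes. The list of 10 leaves out Mir3070a, Mir3070b and Mir432, low plus-strand rows of the same interval. Means of 1000 CPM or more were seen for 5 of the 10 and for 102 of the 363. The 3 detected genes whose levels lay nearest to those of Mir127 in log2(CPM + 1) over the 2 libraries were Mir214, Mir93 and Mir23a, at distances of 0.13, 0.23 and 0.26. Nearness in level over 2 libraries says nothing of shared control.

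**Figure D2:**
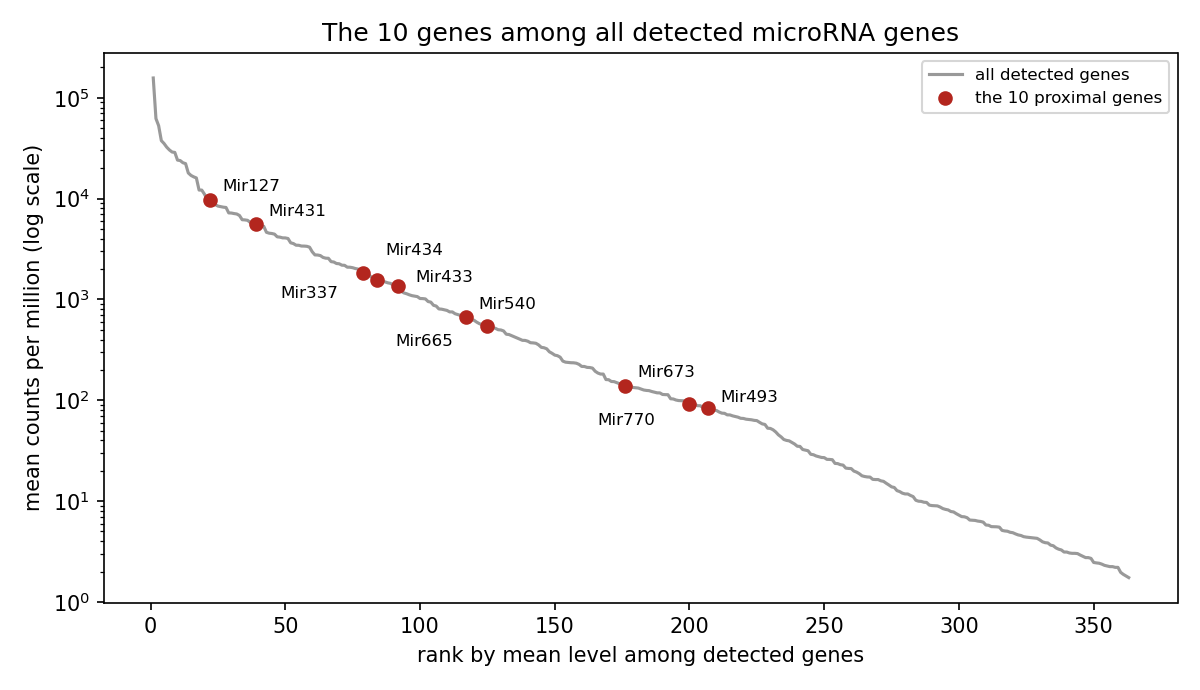
Mean CPM (log scale) of the 363 detected genes against their rank, with the 10 genes marked as points. Mir127 stands at rank 22 and Mir431 at rank 39, and Mir493 at rank 207 is the lowest of the group.

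The libraries were of unequal depth, replicate 1 being 3.87 times deeper, and markers of the labelled tissue were present in both. Of the reads in the tables, 57.2% and 55.7% were assigned to a gene on its strand, and 26.5% and 26.6% had several alignments and were assigned to none. The limit that a count of 0 allows (3 counts of the total) was 0.199 CPM for replicate 1 and 0.769 CPM for replicate 2. Intestinal epithelial markers (Mir192, Mir194-1, Mir194-2, Mir215) summed to 8980 and 11362 CPM, and the smooth muscle pair Mir143 and Mir145a to 171529 and 149642 CPM. The liver marker Mir122 had 39.8 and 51.0 CPM and the striated muscle list 10.9 and 9.48 CPM. In the striated muscle list Mir133a-1 was at 0, and Mir206 gave 10.5 and 8.97 CPM of the sum. Of 6 neural marker genes with a row, 3 were at 0 (Mir124a-2, Mir124a-3 and Mir9-2), and Mir137 gave 2042 and 2316 CPM of the summed 2047 and 2324 CPM. How far these marker genes lost counts to multiple alignment was not tested. A 0 or a low sum here therefore does not show that a marker was absent. The part of these other tissues in the levels of the 10 genes was not tested.

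The 10 genes differed little between the 2 libraries. A gene's 2 counts were set against the ratio of library totals by an exact binomial test (two-sided). Its p-values were adjusted by Benjamini-Hochberg over the 363 detected genes, with 0.05 as the threshold. The test compares 2 libraries and no conditions. In all, 5 of the 10 genes passed, 3 of them higher and 2 lower in replicate 2. With TMM factors, a scaling by edgeR that lowers all log2 differences by 0.08, the split was 1 higher and 4 lower, and with median-ratio size factors from DESeq2, which lower them by 0.09, it was 1 higher and 5 lower. With library totals 43.8% of all detected genes passed, 29.8% higher and 14% lower, so the share is near the background and is no result about the group. With TMM factors 39.1% of all detected genes passed, and with median-ratio factors 39.7%. The median log2 difference of replicate 2 over replicate 1 was 0.0081 for the 10 genes and 0.06 over all detected genes. The median absolute difference was 0.05 for the 10 and 0.15 over all. These sets were not matched for level: detected genes reach down to 10 counts, and the lowest count among the 10 was 323.

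With library totals the difference farthest from 0 was that of Mir665. It was higher in replicate 2 by log2 0.24 (95% counting interval 0.18 to 0.31; adjusted p = 8.07e-12 by the exact binomial test). Mir431 was lower by log2 -0.19 (-0.21 to -0.16; adjusted p = 9.47e-63 by the exact test), and Mir434 by -0.08 (-0.12 to -0.04; adjusted p = 0.000361 by the exact test). These 3 kept direction and call with TMM and median-ratio factors, but their sizes moved. Mir431 then lay farthest from 0, at -0.27 and -0.28, while Mir665 stood at 0.16 and 0.15 and Mir434 at -0.16 and -0.17.

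The other calls depended on the scaling. Mir337 was higher by log2 0.09 (adjusted p = 3.69e-06 by the exact test), and Mir127 by 0.05 (adjusted p = 4.88e-08 by the exact test). With TMM factors Mir337 did not pass (0.01, adjusted p = 0.684 by the exact test). Mir127 was then lower, by -0.04 (adjusted p = 6.56e-05 by the exact test). With library totals Mir770, Mir673, Mir493, Mir540 and Mir433 did not pass, with log2 differences between -0.04 and 0.05. Mir433 passed as lower with TMM factors (-0.08, adjusted p = 0.000520 by the exact test) and with median-ratio factors (-0.09, adjusted p = 8.03e-05 by the exact test). Mir540 passed as lower with median-ratio factors (-0.08, adjusted p = 0.0455 by the exact test) and did not pass with TMM factors (-0.06, adjusted p = 0.0895 by the exact test).

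None of the 10 genes lay beyond the spread of all genes. That spread, the 95th percentile of the absolute log2 difference over the detected genes, was 0.73, or 1.65-fold, and by construction 5.23% of detected genes lay beyond it. The largest absolute difference in the group was 0.24 with library totals. Over genes with at least 50 counts in both libraries the spread was 0.48, and 0 of the 10 lay beyond that. Of the 34 other detected genes of the wider domain (defined below), 0 lay beyond the spread of 0.73 either.

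**Figure D3:**
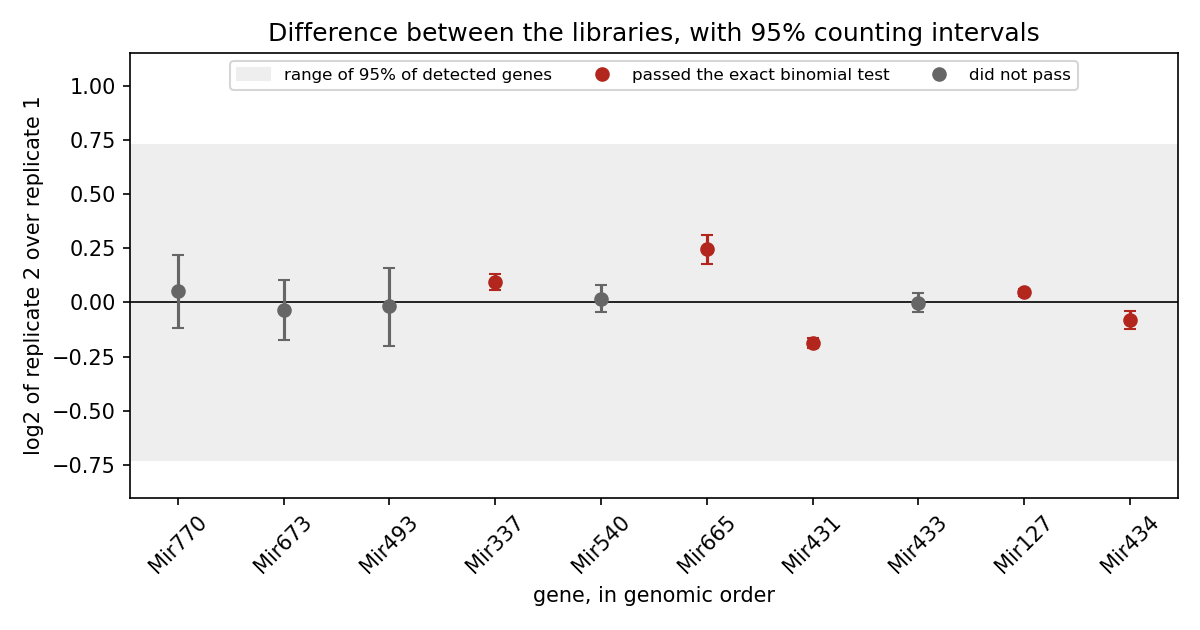
Log2 difference of replicate 2 over replicate 1 for the 10 genes in genomic order, with 95% counting intervals; the grey band spans 0.73 either way, which holds 95% of detected genes. All 10 points lie inside the band, with Mir665 highest at 0.24 and Mir431 lowest at -0.19.

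Within the wider domain the 10 genes held 30.5 ± 0.469% of the counts. The domain is taken here as the 53 plus-strand gene rows between the start of Meg3 and the end of Mirg, which gave 7.07 ± 0.171% of all counts. The other 43 rows exceeded the 10 genes 2.27-fold (log2 ratio of the 10 over the others -1.21 in replicate 1 and -1.16 in replicate 2). Without the genes that share 20 bases of hairpin with another, the log2 ratio was -0.57. Of the other 43 rows, 34 were detected, against all 10 of the proximal genes. Those 43 include Mir3070a, Mir3070b and Mir432, low rows of the same interval that are not listed among the 10. Contrasts in detection and level with the 43 rows partly follow from that listing. The 34 had a median level of 370 CPM, and 8 of them were higher and 8 lower in replicate 2 by the same test. Opposite-strand counts of 4 minus-strand rows (Mir299b, Gm25750, Gm25252 and Gm24321) amounted to a further 1.35 ± 0.0301% of the total. With these added to the domain, the 10 genes held 25.6 ± 0.203%.

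The most abundant of the other genes all lay in the distal cluster. They were Mir411 (8428 ± 581 CPM), Mir487b (8221 ± 78.5 CPM), Mir541 (6088 ± 133 CPM) and Mir379 (5395 ± 555 CPM). Mir127 lay above each of them in both libraries. Mir411 and Mir487b each share 20 bases with another hairpin, so their levels are uncertain.

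Between Mir770 and Mir434 the tables hold 2 more plus-strand rows, both close to 0. Mir3070a had 47 counts in replicate 1 and 10 in replicate 2 (3.11 and 2.56 CPM), and Mir3070b had 2 and 0. Their hairpins share at least 20 identical bases with each other, and reads that align to several places were assigned to no gene, so both levels are uncertain. Mir432, past Mir434 and also opposite Rtl1, had 0 counts in both libraries. Of the genes on either side of the interval, Mir1906-1 in Meg3 had 0 counts and Mir341 in Rian had 1013 and 868 CPM. The Mir1906-1 hairpin also shares at least 20 identical bases with another, that of Mir1906-2, so its 0 is uncertain as well.

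**Figure D4:**
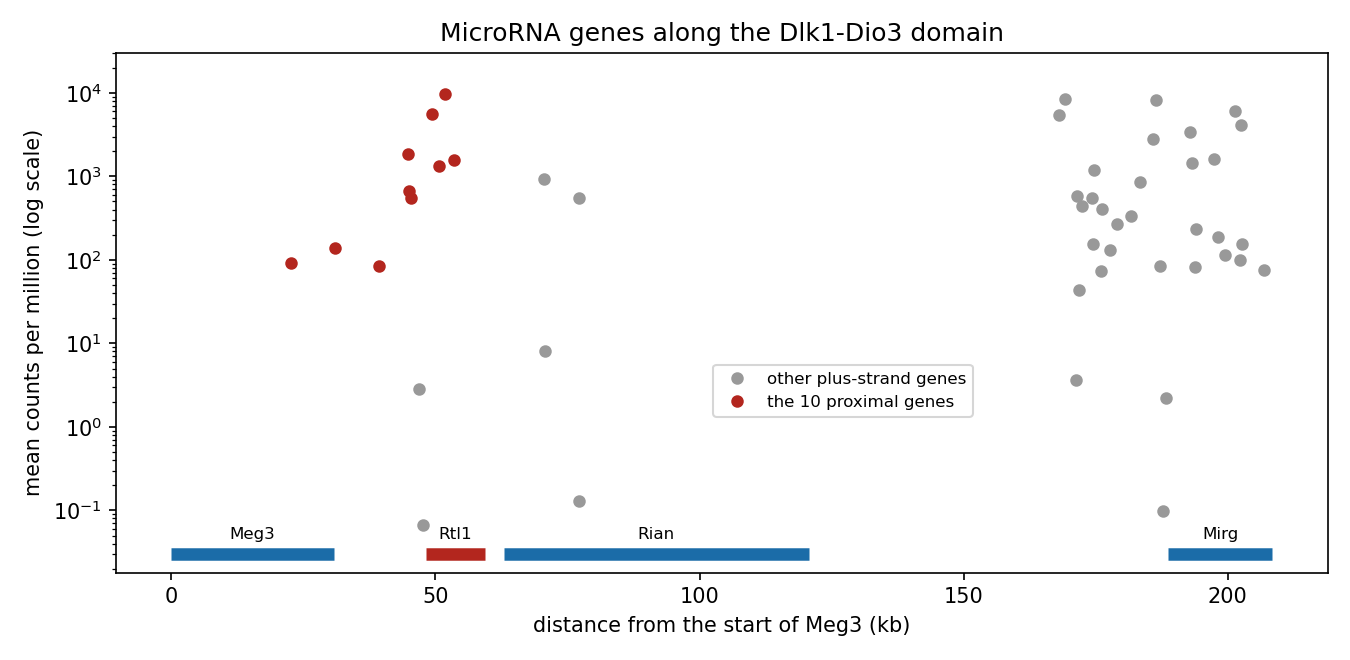
Mean CPM (log scale) of plus-strand microRNA gene rows against distance from the start of Meg3, with bars for Meg3, Rtl1, Rian and Mirg; 5 rows at 0 are not drawn. The 10 proximal genes span 83.3 CPM (Mir493) to 9772 CPM (Mir127, over Rtl1), and the distal genes reach 8428 CPM.

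Reads on the opposite strand were almost absent, except at Mir337. Mir337 had 93 opposite-strand counts in replicate 1 and 21 in replicate 2, which are 0.347% (Wilson 95% interval 0.284 to 0.425%) and 0.284% (0.186 to 0.434%) of its reads. Mir434 had 1 opposite-strand count in replicate 1 and 0 in replicate 2. The other 8 genes had 0 in both libraries. For Mir127 this allows a share of up to 0.00207% in replicate 1 and 0.00774% in replicate 2. Among all detected genes 89.0% and 94.2% had 0 opposite-strand counts, so 0 is the usual value.

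Mir3544, a microRNA annotated on the minus strand, lies within Mir337 (chr12:109585813-109585873). The counts are per gene and do not show where in Mir337 the opposite-strand reads lie. Mir3544 has no row of its own in the tables analysed here. The mature sequences of both genes are shown because they mirror each other. miR-3544-3p lies opposite miR-337-5p over 17 bases, and miR-3544-5p opposite miR-337-3p over 21 bases.
miR-337-5p: cGGCGUCAugcaggaguugauu
miR-337-3p: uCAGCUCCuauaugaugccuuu
miR-3544-3p: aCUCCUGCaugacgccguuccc
miR-3544-5p: aGAAAGGCaucauauaggagcug

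The seeds of the group were nearly all its own. The 20 mature arms of the 10 genes carry 20 different seeds, and 18 of these occur in no other mature mouse microRNA of the RefSeq table. Among the 1679 mature names listed there, 27.9% share a seed with another. The 2 shared seeds are those of miR-673-5p (with miR-6985-3p) and miR-540-3p (with miR-6915-5p), shown here beside their partners.
miR-673-5p: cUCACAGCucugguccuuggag
miR-6985-3p: cUCACAGCcaccuccucacag
miR-540-3p: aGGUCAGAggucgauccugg
miR-6915-5p: aGGUCAGAgcagauggagguucgu

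Mir6985 was near 0 in these libraries, with 9 and 3 counts against 2136 and 539 for Mir673. No hairpin of the 10 genes shares 20 identical bases, in either orientation, with any of the other annotated microRNA hairpins, 2202 in all. Their counts therefore have no partner of that kind among annotated microRNAs. Shorter or inexact matches, and places outside these hairpins, were not searched, so loss of reads there was not tested. miR-493-5p, with 19 bases, is itself shorter than the stretch searched for.

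Several hairpins of the group contain internal repeats. Mir434 has a stretch of 13 bases that occurs at 2 places, and 8 of the 1005 RefSeq hairpins, Mir434 included, hold a repeat of at least that length. Mir431 and Mir540 each repeat 10 bases, which is matched or exceeded by 2.79% of hairpins. The repeats are in capitals in the Mir434 and Mir431 hairpins.
Mir434 hairpin: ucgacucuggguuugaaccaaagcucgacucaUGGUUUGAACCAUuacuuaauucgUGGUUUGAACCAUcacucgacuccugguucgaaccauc
Mir431 hairpin: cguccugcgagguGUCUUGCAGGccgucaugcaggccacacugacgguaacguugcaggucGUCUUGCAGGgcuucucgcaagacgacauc

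A search for GGUUNGAACCA, taken from the Mir434 repeat after it was seen, found 4 copies in the Mir434 hairpin and none in the other hairpins. On the opposite strand the search found 1 copy, which overlaps the last of these. The seed of miR-434-3p lies within this element. In Mir431 the repeated stretch GUCUUGCAGG includes the whole seed of miR-431-5p, and its other copy lies within miR-431-3p.

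The hairpins of the group had a median GC content of 56.8%, from 45.7% (Mir434) to 70.2% (Mir770), against 51.7% over all RefSeq hairpins. The predicted folding energy per base was lower than the median of all hairpins (-0.406 kcal/mol) for 8 of the 10. It was lowest for Mir770 (-0.619), whose level was among the lowest, and highest for Mir433 (-0.361).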

How the data were processed

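Small RNA of embryonic mouse intestine was measured in 2 libraries of 1 group. The authors deposited, per library, whole-number read counts per gene in 3 columns, for both strands, the strand of the gene and the other strand. Per the file headers (the accompanying file records), the assembly was mm10 and the gene annotation GENCODE M4. Aligner, trimming and counting program are not given in the sources used here. The strand meaning of the columns rests on the values. Rows for unaligned reads (12.4% and 13.8% of reads), several alignments and no gene (2.20% and 2.10%) entered no total.

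Symbols and coordinates came from GENCODE M21, which held 1894 of 1973 identifiers. For 3 of the 10 genes (Mir337, Mir540, Mir127) the identifier version differs, so the counted interval may differ. RefSeq hairpins had the same coordinates for all 10 genes. Sequences of 20 arms and 10 hairpins were matched by symbol. Folding used RNAfold 2.7.2, and scaling alternatives edgeR 4.0.16 (TMM) and DESeq2 1.42.0 (median ratio). Statistics used scipy 1.17.1. The exact binomial test was tested on simulated data with counting error only. These held no variation between animals, so they do not show how the test behaves on such variation.

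With 1 library on each side no replicated test exists, and p-values measure only these 2 libraries. All 10 genes are named. Beside them stand overlapping genes, sequence partners, the 4 most abundant other domain genes and the 3 nearest to Mir127 in level. The members and lists were chosen with earlier results of these data known. Alternatives covered strand, replicate, denominator, scaling, length, minimum count, depth and test.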

Additional observations from a re-analysis of the deposited data

Results flagged for a closer look

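Opposite-strand counts, which the levels on the gene's own strand leave out, stood above the limit that a count of 0 allows at Mir337. There were 93 in replicate 1 and 21 in replicate 2, against a limit of 3 counts in each library. The row at the place of Mir136 and Mir3071 (chr12:109595318-109595397), within the span of Rtl1 and just past Mir434, had 6696 counts in replicate 1 and 1797 in replicate 2 (444 and 460 CPM), with 6 and 1 on its other strand. GENCODE M21 gives its identifier to Mir3071 on the minus strand, in a later version than the table's, and has Mir136 on the plus strand under an identifier with no row. Which strand was counted is therefore not settled here, and the row was left out of the 10 genes and of the domain. The sequences at stake are shown, with seeds in capitals.
miR-136-5p: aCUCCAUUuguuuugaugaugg
miR-136-3p: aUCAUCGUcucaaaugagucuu
miR-3071-5p: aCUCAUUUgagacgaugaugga
miR-3071-3p: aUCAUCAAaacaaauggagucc

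With 2 libraries, no group was large enough to test a single sample for standing apart.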

How the results depend on the processing

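No paired analysis was possible because there was 1 group, whose 2 replicates have no second condition to pair with. Leaving out each replicate in turn gave medians of 1004 to 1007 CPM for the 10 genes, summed shares of 2.15 to 2.17%, shares of Mir127 of 44.2 to 46.3%, log2 ratios of Rtl1-antisense over Meg3-side genes of 2.37 to 2.51 and of the group over the rest of the domain of -1.21 to -1.16, and opposite-strand shares of 0.0251 to 0.0287%. The tests between libraries cannot be run without a replicate. The median level of the group (1005 CPM) was 975 with both strands counted, 568 over all reads in the table, 1969 over a total without the 10 most abundant genes and 1039 per 100 annotated bases. The summed share was 2.10, 1.22 and 4.23% under the first 3 of these. Without genes that share 20 bases of hairpin, Mir411 and Mir487b among them, the log2 ratio of the group to the rest of the domain was -0.57 (fewer genes in the rest). Mir337 carried nearly all of the opposite-strand share, which was 0.000166% without it, a setting chosen after the data had been seen. Adding the row at the place of Mir136 and Mir3071, likewise chosen later, moved the log2 ratio of Rtl1-antisense over Meg3-side genes by less than 1 SD.

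With TMM factors 1 gene was higher and 4 lower in replicate 2, and with median-ratio size factors 1 higher and 5 lower, against 3 and 2. Both scalings turned Mir770 (-0.030 and -0.040), Mir540 (-0.065 and -0.075) and Mir127 (-0.035 and -0.046), as they lower every difference by 0.08 and 0.09. Under the other settings of that test the counts were 3 and 2, with 26% to 56.3% of all genes tested passing. The order of the 10 genes changed per 100 bases alone. Depth limits the differences of Mir770, Mir673 and Mir493, whose counting intervals run from -0.12 to 0.22, from -0.17 to 0.10 and from -0.20 to 0.16.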

Other observations

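Seed complements of the 10 genes' arms in the Rtl1 transcript were counted as exact matches of 7 letters on the sense strand. miR-434-3p had 4 such places, and miR-434-5p, miR-431-5p and miR-540-3p had 3 each, the exact sites of the Rtl1-antisense arms included. Those arms have at least 1 place by position, and repeats in the Mir434 and Mir431 hairpins add places at their own locus. At the other end miR-673-5p, miR-673-3p, miR-493-5p, miR-337-5p and miR-665-5p had 0. Of all mature mouse microRNAs listed in RefSeq, 4.53% had at least 3, and 61.3% had none. These shares are no background for arms opposite Rtl1. miR-540-3p, of a Meg3-side gene, has no exact full-length match in that transcript. These matches describe letters, not binding.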
